A study of Mus musculus with 16 samples.

Results

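The 6 genomic windows described here hold 7 genes for tissue-restricted antigens: Ins2, Tff3, Csn2 with Csn3, Tg, Crp and Gad1. Their members are the accessible regions that lie wholly inside a fixed window of the mm9 genome around each gene, chosen by position and not by signal. These are 185 of the 250313 regions in the deposited table, each 500 bases long: 22 at Ins2, 44 at Tff3, 14 in the casein window with Csn2 and Csn3, 58 at Tg, 23 at Crp and 24 at Gad1. The windows are chr7:149800000-149930000 for Ins2, chr17:31190000-31340000 for Tff3, chr5:88050000-88450000 for the caseins, chr15:66430000-66760000 for Tg, chr1:174540000-174720000 for Crp and chr2:70330000-70500000 for Gad1.

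Open chromatin was profiled in 16 ATAC-seq libraries of medullary thymic epithelial cells (mTECs), an assay that uses the Tn5 transposase to insert adapters where DNA is accessible. All came from thymi of C57BL/6 mice aged 4 weeks, and 60000 cells were sorted for each library as DAPIneg and CD45neg but Epcam+ and UEA+, with low Ly51. The sort by MHC class II gave mTEChi (MHCIIhi) and mTEClo (MHCIIlo) cells. The 8 groups of 2 libraries are Aire-/- mTEChi, Aire-/- mTEClo, Brg1-/- mTEChi and Brg1-/- mTEClo, each with its wild-type counterpart, Aire+/+ or Brg1+/+, from the same line and sort. The labels name no Cre driver for the loss of Brg1, but their short descriptions mark the Brg1+/+ libraries as without Cre, so Cre itself may differ within that line. No label tells if both libraries of a group were made from separate mice, so p-values measure the spread between these libraries, which may be technical. In sorted populations, fewer cells with an open region and a less open region in each cell cannot be told apart.

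mTECs transcribe many genes whose products are found in a few peripheral organs, and developing T cells that recognise the encoded antigens are removed or diverted. Aire is a nuclear regulator that raises the transcription of many of these genes, mostly in mature mTEChi cells, whereas other antigen genes are transcribed without it. Brg1, encoded by Smarca4, is an ATPase subunit of the SWI/SNF chromatin remodelling complex, which moves nucleosomes and opens DNA. Ins2 encodes insulin, the hormone of pancreatic beta cells; Tff3 encodes trefoil factor 3, a secreted peptide of the intestinal mucosa. Csn2 and Csn3 encode beta-casein and kappa-casein, milk proteins of the mammary gland, and Tg encodes thyroglobulin, the precursor of thyroid hormone. Crp encodes C-reactive protein, a plasma protein made by the liver, and Gad1 encodes a glutamate decarboxylase that makes the transmitter GABA in neurons. From general knowledge of published expression studies, transcripts of Ins2, Tff3 and Csn2 are known as Aire-dependent and those of Crp and Gad1 as Aire-independent; Tg and Csn3 are put in no class here, and the casein window is counted as dependent because of Csn2.

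The promoters of 3 of the 7 genes had an entry in the RefSeq table used here and are shown, 1 of an Aire-dependent gene and 2 of Aire-independent genes. The sequences are the 250 bases before the transcript start in RefSeq on build GRCm38.p6, 5′ to 3′ on the gene's strand, with CG in capitals. Csn2 is at chr5:87699426-87699675 on the minus strand, Crp at chr1:172697806-172698055 and Gad1 at chr2:70561879-70562128, both on the plus strand. That build differs from the mm9 build of the accessible regions, so these positions cannot be set beside theirs.
Csn2: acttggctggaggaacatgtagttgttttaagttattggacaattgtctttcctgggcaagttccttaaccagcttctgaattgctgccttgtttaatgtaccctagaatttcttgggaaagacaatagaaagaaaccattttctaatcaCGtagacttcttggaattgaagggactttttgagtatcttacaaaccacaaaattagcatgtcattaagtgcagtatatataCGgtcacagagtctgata
Crp: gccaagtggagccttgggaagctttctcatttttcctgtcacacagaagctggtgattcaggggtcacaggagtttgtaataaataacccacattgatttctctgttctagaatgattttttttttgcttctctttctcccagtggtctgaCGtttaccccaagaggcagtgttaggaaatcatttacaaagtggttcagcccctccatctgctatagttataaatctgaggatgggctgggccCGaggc
Gad1: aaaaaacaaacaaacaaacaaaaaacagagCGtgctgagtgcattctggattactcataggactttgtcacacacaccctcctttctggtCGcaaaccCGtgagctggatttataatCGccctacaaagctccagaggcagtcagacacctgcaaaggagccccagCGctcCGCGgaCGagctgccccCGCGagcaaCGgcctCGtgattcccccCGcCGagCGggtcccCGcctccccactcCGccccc
The Csn2 and Crp promoters each hold 2 CG, and 29.0% of the 32851 promoters in the same table hold that many or fewer. The Gad1 promoter holds 17 CG, a number reached or passed by 23.5% of promoters, and the median promoter holds 6.0. The G and C content is 36.8% for Csn2, 44.8% for Crp and 58% for Gad1. The letters TATAAA, searched on both strands, are present in the Crp and Gad1 windows and not in that of Csn2, and 12.4% of all promoters hold them. The Aire-independent Crp and Gad1 promoters thus differ from each other in CG number, and Crp has the same number as the Aire-dependent Csn2. Which of the accessible regions lie over promoters, exons or introns was not analysed here, nor was the sort or the deletion checked against marker genes, because the regions carry no gene names.

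Among the 6 windows the regions were densest at Tff3, with 29.3 per 100 kb, against 19.7 in the 500 kb on each side. The density was 17.6 per 100 kb at Tg, 16.9 at Ins2, 14.1 at Gad1 and 12.8 at Crp, against 16 in the flanks of Tg, 20.5 in those of Ins2, 14 in those of Gad1 and 13.5 in those of Crp. The casein window was sparse, with 3.5 regions per 100 kb and 1.7 in its flanks, while chromosome 5 as a whole had 10.3. The annotation on GRCm38 places Igf2 and Th next to Ins2, Abcg1, Tff2 and Tff1 next to Tff3, other milk protein genes next to Csn2, Phf20l1 and Sla next to Tg, Dusp23 and Apcs next to Crp, and Erich2 and Gorasp2 next to Gad1, so a region in a window need not belong to the named antigen gene. The signal is in the authors' normalized units, and the median of the mean signal over the 16 libraries was 13.9 for the 185 regions and 14.2 for the whole table. By locus that median was 22.7 at Crp, 16.7 at Tff3, 16.4 at Gad1, 12.6 at Tg, 9.62 in the casein window and 9.19 at Ins2. Of the 185 regions, 93 were above the median region of the table and 17 were past its 90th percentile, of which 7 were at Tff3, 5 at Gad1, 3 at Crp, 1 each at Ins2 and Tg, and none in the casein window. At the window edges, the last region inside the Gad1 window averaged 178.8 and the one that straddles its end, which is no member, 18.0. At the end of the Ins2 window the last region inside averaged 25.5 and the next one outside 4.65.

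**Figure D1:**
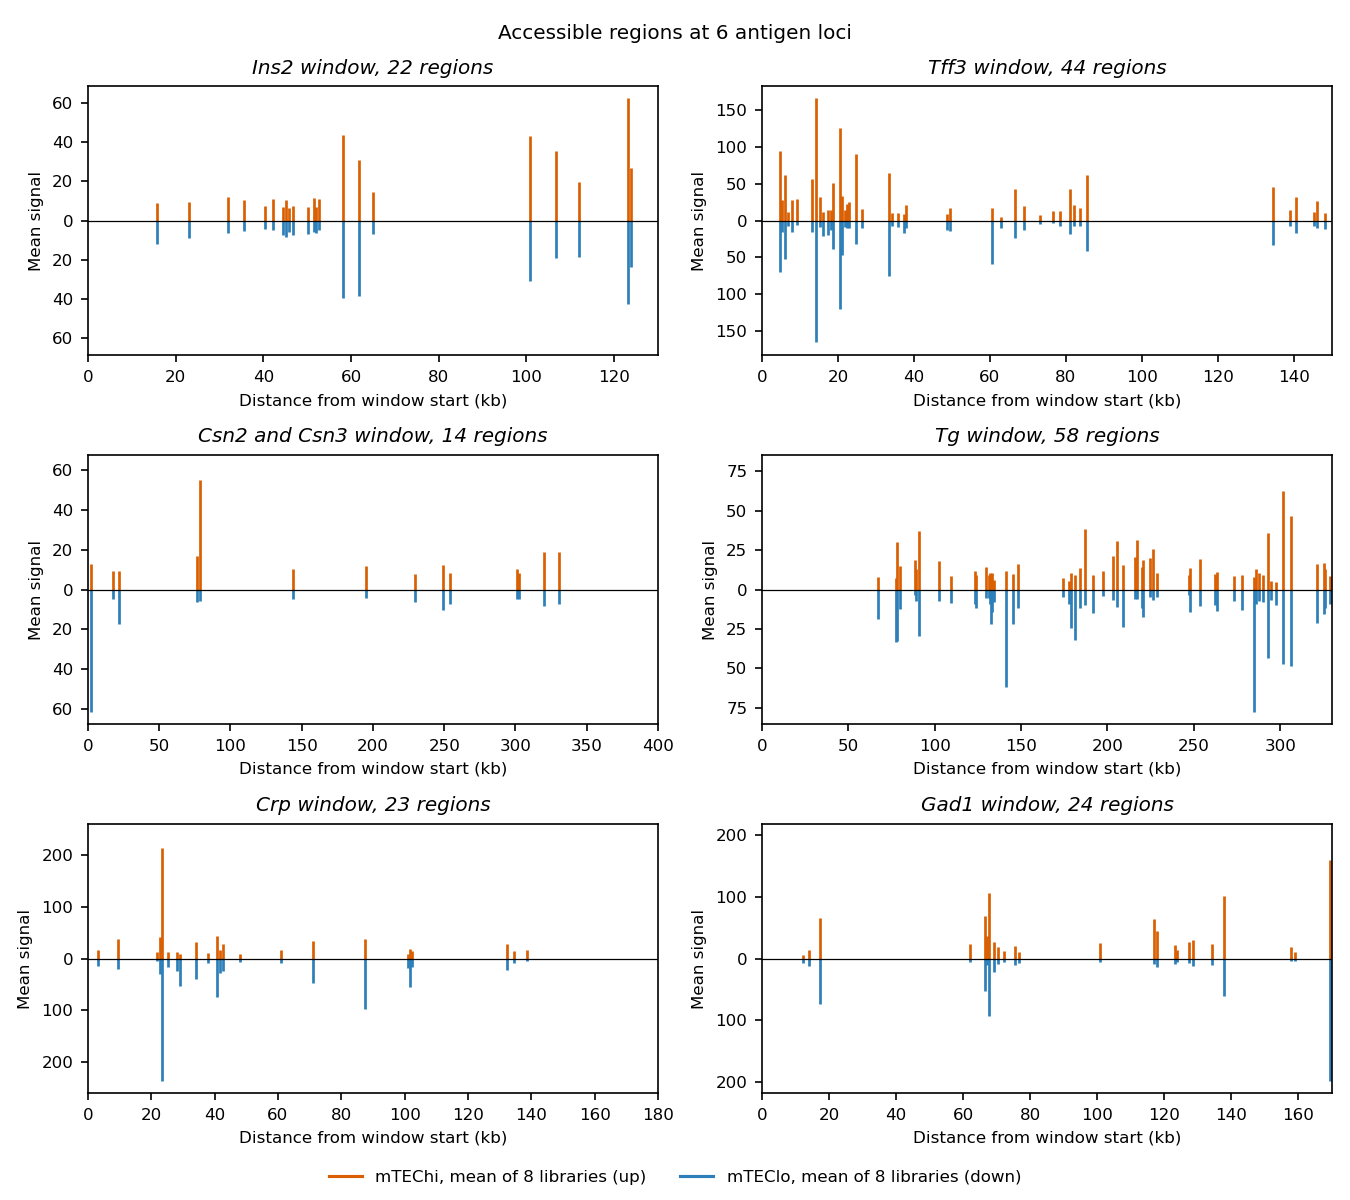
Mean signal (vertical axis, authors' normalized units) of each accessible region against its distance from the window start (horizontal axis, kb) for the 6 windows, with the mean of the 8 mTEChi libraries drawn upward and that of the 8 mTEClo libraries downward. The 14 regions of the casein window are spread over 400 kb, while the 44 regions at Tff3 share 150 kb.

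At Crp, chr1:174562979-174563478 had the highest mean signal, 225.1. Its signal was 210 and 206 in Aire-/- mTEChi libraries, against 155 and 247 in Aire+/+ mTEChi libraries. In Brg1-/- mTEChi libraries it was 182 and 277, against 242 and 191 in Brg1+/+ mTEChi libraries. The knockout and wild-type libraries of each line overlapped at this region. At Gad1, chr2:70499273-70499772 averaged 178.8 over the 16 libraries, with 159 and 197 in Aire-/- mTEChi libraries, against 165 and 161 in Aire+/+ mTEChi libraries. At Tff3, chr17:31203914-31204413 averaged 164.8. The Tff3 region had 140 and 184 in Aire-/- mTEChi libraries, against 183 and 166 in Aire+/+ mTEChi libraries, which overlapped. At Ins2 the highest region, chr7:149922816-149923315, averaged only 52.7, with 32.4 and 31.9 in Aire-/- mTEChi libraries, against 67.2 and 14.7 in Aire+/+ mTEChi libraries. The 2 Aire+/+ mTEChi libraries lay on either side of the Aire-/- libraries there. The strongest region at Tg, chr15:66731218-66731717, had 105 and 61.6 in Aire-/- mTEChi libraries, against 17.5 and 60.9 in Aire+/+ mTEChi libraries, which were just apart. The strongest casein region also had the genotypes apart and is described with the effect of Aire loss.

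Facts of the whole table bear on what follows. Library medians of the signal were 8.51 to 19.8 although the 99th percentiles were all within 213.7 to 217.3, so locus medians can move with the scale of a library. The labels give no sequencing depth, so the counting error is unknown. Of the 2960 values of the 185 regions, 4 were listed at 0. The 2 Aire+/+ mTEChi libraries were the least alike of the 8 pairs. The Pearson r of their log2 signal over all regions was 0.553. That of the Brg1-/- mTEChi pair was 0.600, and the highest was 0.811. Such a value cannot tell which of the 2 Aire+/+ mTEChi libraries is the odd one. Several results that use Aire+/+ mTEChi replicate 2 are given with and without it, but not all of them.

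Averaged over the loci of a class, the typical signal was lower for Aire-dependent than for Aire-independent loci in all 16 libraries, knockout and wild type alike. The median log2(signal + 1) of each locus was averaged over the 3 dependent loci and over the 2 independent ones. The difference, dependent minus independent, was -0.81 and -0.61 in Aire-/- mTEChi libraries, against -0.85 and -0.79 in Aire+/+ mTEChi libraries. In mTEClo it was -0.38 and -0.79 in Aire-/- libraries, against -0.52 and -0.72 in Aire+/+ libraries. The genotypes overlapped in both sorts. With means over the regions of a locus in place of medians they were apart in mTEClo, with -0.60 and -0.57 in Aire-/- libraries, against -0.87 and -0.82 in Aire+/+ libraries. In the Brg1 line the difference was -0.63 and -0.39 in Brg1-/- mTEChi libraries, against -0.20 and -0.63 in Brg1+/+ mTEChi libraries, and -0.96 and -0.37 in Brg1-/- mTEClo libraries, against -0.65 and -0.34 in Brg1+/+ mTEClo libraries. These groups overlapped as well, but with means they were apart in mTEChi, with -0.19 and -0.33 in Brg1-/- libraries, against -0.54 and -0.62 in Brg1+/+ libraries. With the casein window left out, 15 of the 16 differences stayed negative and that of Brg1+/+ mTEChi replicate 1 became 0.07. The difference is a description of 5 windows with 2 libraries a group, and no test was run on it. The order of loci set by these levels was not that of the classes throughout: Tff3, an Aire-dependent locus, had a higher median than Crp in 3 of the 4 mTEChi libraries of the Aire line, and in Aire-/- mTEChi replicate 1 Tff3 had 4.12 and Crp 4.53. Tff3 was also above Crp in every mTEChi library of the Brg1 line. In mTEClo, Tff3 was above Gad1 in every library. The mTEClo group means of Tff3 and Gad1 were 3.96 and 3.58 in Aire-/-, and 4.20 and 3.68 in Aire+/+ cells. They were 3.45 and 3.31 in Brg1-/-, and 3.47 and 3.01 in Brg1+/+ cells.

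**Figure D2:**
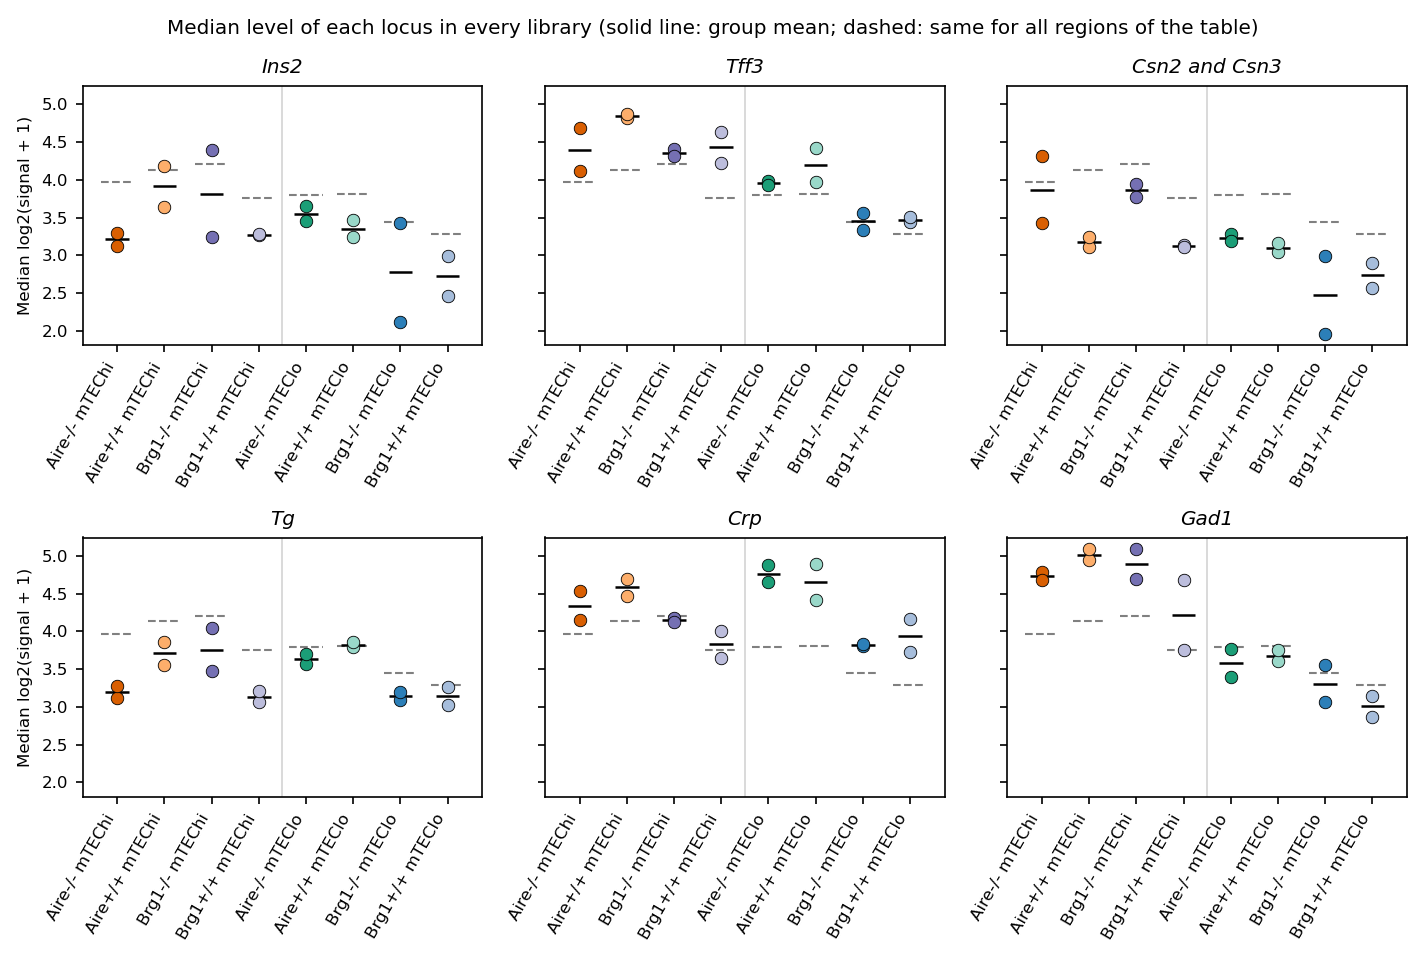
Median log2(signal + 1) over the regions of each locus (vertical axis) in every library (points) of the 8 groups (horizontal axis, mTEChi left of mTEClo and knockout left of its wild type), with the group mean as a solid line and the mean of the all-region medians as a dashed line. Gad1 is higher in mTEChi than in mTEClo libraries in every genotype. Ins2, Tff3, Tg and Gad1 are lower in Aire-/- than in Aire+/+ mTEChi libraries, and the casein locus is higher.

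Without Aire, no region at any of the 6 loci changed past the test in either sort. In mTEChi, 0 of the 166 members tested were called with limma at a Benjamini-Hochberg adjusted p under 0.05, where 0.0209% of the 225281 regions tested were called. At an unadjusted p under 0.05, 10 members passed, 5 higher and 5 lower in Aire-/- cells, against a background of 10.2% of all regions, 4.98% higher and 5.20% lower. In mTEClo again 0 of 166 members were called and 0% of all regions, and 7 members, 4 higher and 3 lower, passed an unadjusted p under 0.05, against 2.50%, 1.29% higher and 1.21% lower. The other 19 members were left untested by the filter on low signal, 6 each at Ins2 and Tg, 4 in the casein window, 2 at Gad1 and 1 at Tff3. The test of whether the effect of Aire loss differed between mTEChi and mTEClo called 0 members, with 0.000444% of all regions called, and 9 members passed an unadjusted p under 0.05, against 5.15%.

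Of the loci known as Aire-dependent, Ins2 had the lowest median fold change in mTEChi. The median log2 signal of the Ins2 locus was 3.12 and 3.30 in Aire-/- mTEChi libraries, against 3.64 and 4.19 in Aire+/+ mTEChi libraries. All regions of the table had medians of 4.09 and 3.85 in Aire-/- mTEChi libraries, against 4.02 and 4.25 in Aire+/+ mTEChi libraries. Both Aire-/- mTEChi libraries were thus below both Aire+/+ libraries at Ins2, whereas the medians of all regions overlapped. The same order was seen at Tff3, Tg and the Aire-independent Gad1. The differences of group means were -0.71 at Ins2, -0.45 at Tff3, -0.52 at Tg and -0.29 at Gad1. Relative to the all-region median of each library, Ins2, Tg, Crp and Gad1 had this order and Tff3 overlapped. The differences were then -0.54 at Ins2, -0.36 at Tg, -0.08 at Crp and -0.12 at Gad1. The casein locus had the opposite order by both measures. With means in place of medians, relative to the all-region mean, Ins2, Tff3 and Tg were lower in Aire-/- libraries, and Crp and Gad1 overlapped. Crp then had 0.40 and 0.21 in Aire-/- mTEChi libraries, against 0.15 and 0.54 in Aire+/+ mTEChi libraries. Over the 22 Ins2 regions the median log2 fold change was -0.63, with 19 values below 0. Over all regions of the table it was -0.02, with 48.8% of values above 0. Without Aire+/+ mTEChi replicate 2 the median was -0.47 with 14 of 22 below 0, and without Aire-/- mTEChi replicate 1 it was -0.31. No single region passed the test: the largest change, at chr7:149831775-149832274, was -1.92 ± 1.05 (SE; limma adjusted p = 0.549), with signals of 0.82 and 5.58 in Aire-/- mTEChi libraries, against 3.08 and 41.1 in Aire+/+ mTEChi libraries. Aire+/+ mTEChi replicate 2 alone was high at that region, and without it the fold change was -0.23.

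In mTEClo the Ins2 regions leaned the other way. The locus median was 3.65 and 3.46 in Aire-/- mTEClo libraries, against 3.47 and 3.24 in Aire+/+ mTEClo libraries, and the libraries overlapped narrowly. The median log2 fold change was 0.52, with 19 of 22 regions above 0, against 0.0015 over all regions, of which 50.1% were above 0. Leaving out 1 library at a time kept it between 0.36 and 0.53. The largest change, at chr7:149906504-149907003, was 1.29 ± 0.61 (SE; limma adjusted p = 1), with 31.7 and 21.8 in Aire-/- mTEClo libraries, against 19.2 and 5.22 in Aire+/+ mTEClo libraries. The difference of the 2 effects, mTEChi minus mTEClo, had a median of -1.11 over the 22 regions, 19 of them below 0. Over all regions the median was -0.03, with 48.7% of values above 0. With limma, none of the 16 Ins2 regions tested passed an unadjusted p under 0.05 for that difference. Without any 1 library that median stayed between -1.50 and -0.75, and without Aire+/+ mTEChi replicate 2 it was -1.05 with 15 of 22 below 0. Because the regions of a locus share libraries, their common direction was not tested.

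At Tff3 the fold changes in Aire-/- mTEChi had a median of -0.27, with 29 of 44 below 0. At the casein locus they had a median of 0.48, with 12 of 14 above 0, where 48.8% of all regions were above 0. The lowest locus median, at Ins2, and the highest, at the caseins, thus both belonged to loci known as Aire-dependent. Without Aire+/+ mTEChi replicate 2 the Tff3 median was -0.54. At chr17:31239098-31239597, the largest change at Tff3, the signal was 5.92 and 15.5 in Aire-/- mTEChi libraries, against 44.0 and 31.7 in Aire+/+ mTEChi libraries. Both Aire-/- libraries were lower, with a log2 fold change of -1.84 ± 0.71 (SE; limma adjusted p = 0.364), or -2.07 without Aire+/+ mTEChi replicate 2. Another Tff3 region, chr17:31214540-31215039, had 41.4 and 50.7 in Aire-/- mTEChi libraries, against 102 and 94.9 in Aire+/+ mTEChi libraries. Here too the groups did not overlap, at a log2 fold change of -1.09 ± 0.40 (SE; limma adjusted p = 0.340), and in mTEClo the signal was 13.3 and 25.7 in Aire-/- libraries, against 30.7 and 33.8 in Aire+/+ libraries. Of the 43 Tff3 regions tested, 12 had both Aire-/- mTEChi libraries below both Aire+/+ mTEChi libraries and 2 had them above, where 18.6% and 18.9% of all regions did.

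In the casein window the largest change in mTEChi was at chr5:88299173-88299672, with 21.5 and 12.6 in Aire-/- libraries, against 3.64 and 5.76 in Aire+/+ libraries. Both Aire-/- libraries were higher, with a log2 fold change of 1.64 ± 0.71 (SE; limma adjusted p = 0.422), or 1.92 without Aire+/+ mTEChi replicate 2. The highest region of the window by mean log2 signal, chr5:88051597-88052096, had 19.7 and 17.4 in Aire-/- mTEChi libraries, against 4.38 and 7.03 in Aire+/+ mTEChi libraries, at a log2 fold change of 1.57 ± 0.53 (SE; limma adjusted p = 0.296). The casein locus median was 4.31 and 3.43 in Aire-/- mTEChi libraries, against 3.10 and 3.24 in Aire+/+ mTEChi libraries, a difference of 0.70, or 0.86 relative to the all-region medians. Aire-/- mTEChi replicate 1 stood well above the other 3, and with 1 library left out the median fold change ranged between 0.44 and 1.02.

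At the Aire-independent loci the median fold change in mTEChi was -0.19 at Crp and -0.11 at Gad1, and at Tg it was -0.41, against -0.02 over all regions. Without Aire+/+ mTEChi replicate 2 the Crp median turned to 0.35, the Gad1 median was -0.19 and the Tg median -0.22. Without Aire-/- mTEChi replicate 2 the Crp median was 0.08, so its direction rests on single libraries. The smallest adjusted p among all members was at Gad1, at chr2:70399051-70399550. There the signal was 31.5 and 51.2 in Aire-/- mTEChi libraries, against 6.91 and 13.7 in Aire+/+ mTEChi libraries, so both Aire-/- libraries were higher. Its log2 fold change was 1.94 ± 0.60 (SE; limma adjusted p = 0.248), and without Aire+/+ mTEChi replicate 2 it was 2.38. At Crp the largest change was 1.22 ± 0.90 (SE; limma adjusted p = 0.680), at chr1:174587675-174588174, with 22.1 and 11.9 in Aire-/- mTEChi libraries, against 6.10 and 6.79 in Aire+/+ mTEChi libraries. At Tg the largest was -2.89 ± 0.96 (SE; limma adjusted p = 0.287), at chr15:66656112-66656611. That value rested on single libraries, with 0.83 and 8.29 in Aire-/- mTEChi libraries, against 10.7 and 78.3 in Aire+/+ mTEChi libraries, and without Aire+/+ mTEChi replicate 2 it was -1.51. In mTEClo the medians of Tff3, the caseins, Tg, Crp and Gad1 lay between -0.24 and -0.05, and the casein median turned positive, to as much as 0.38, when Aire-/- mTEClo replicate 1 or 2 or Aire+/+ mTEClo replicate 2 was left out.

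**Figure D3:**
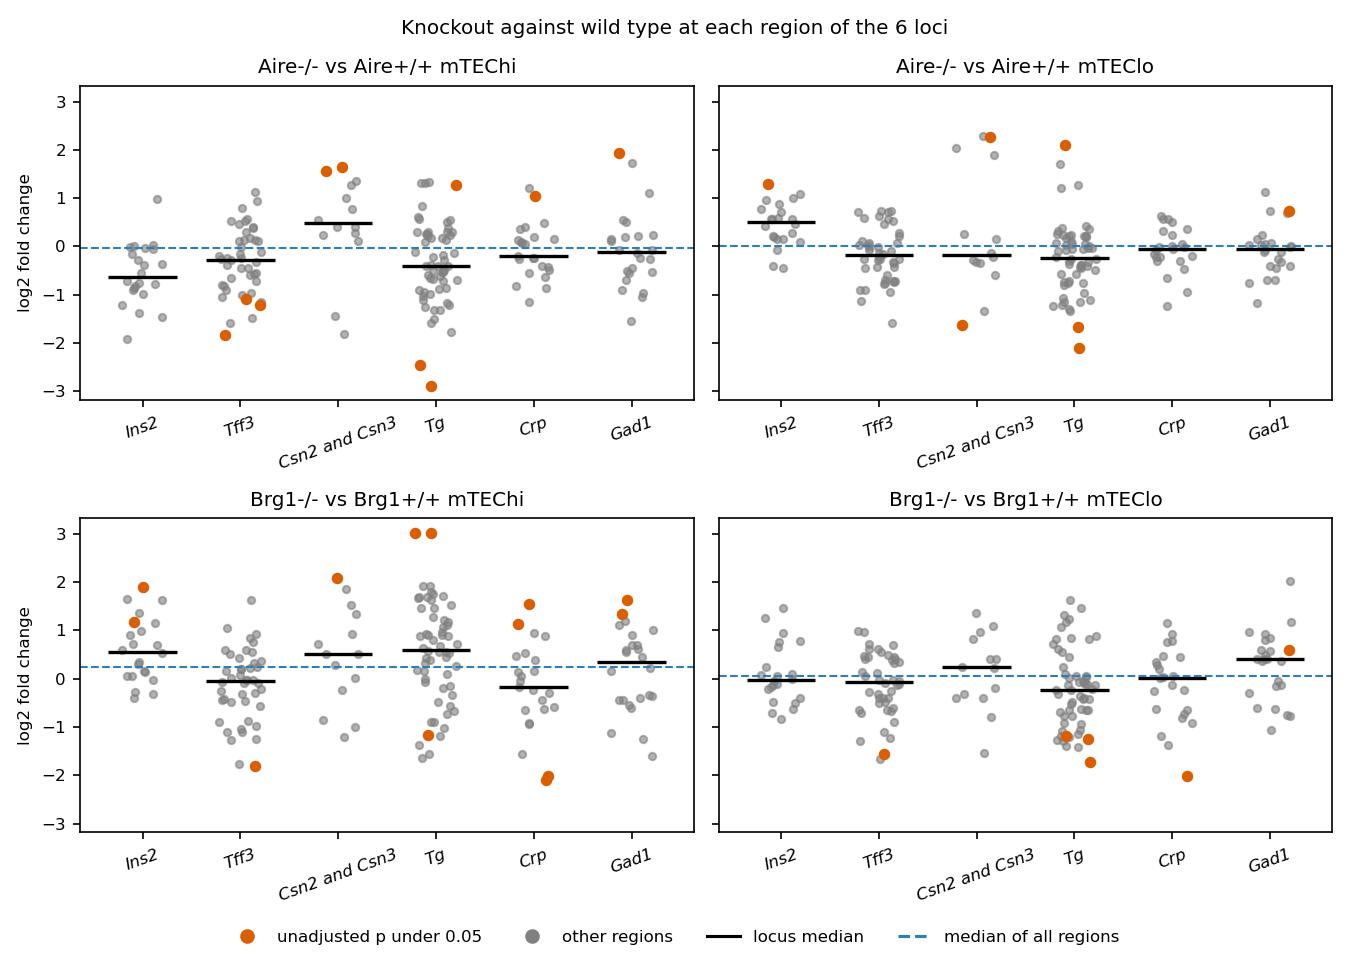
Log2 fold change of each of the 185 regions (points), knockout over wild type, by locus (horizontal axis) in the 4 knockout comparisons, with the locus median as a black line and the all-region median as a dashed line. Orange points passed an unadjusted p under 0.05 and none passed after adjustment; the Ins2 points lie mostly below 0 in Aire-/- mTEChi and above 0 in Aire-/- mTEClo.

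Without Brg1 no member region was called either. In mTEChi 0 of 166 members were called with limma, where 0.0257% of all regions were, and 13 passed an unadjusted p under 0.05, 9 higher and 4 lower in Brg1-/- cells, against 10.7%, 7.80% higher and 2.90% lower. In mTEClo 0 of 166 were called, against 0.000444%, and 6 passed an unadjusted p under 0.05, 1 higher and 5 lower, against 6.15%, 3.15% higher and 3.00% lower. The test of a difference in the effect of Brg1 loss between mTEChi and mTEClo called 0 members and 0% of all regions, and 8 members passed an unadjusted p under 0.05, against 7.09%. The all-region median fold change in mTEChi was itself 0.24, so the locus medians are read against that value.

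Tg had the highest median in Brg1-/- mTEChi, 0.60, with 41 of 58 regions above 0, where 61.9% of all regions were. The caseins had 0.52, Ins2 0.56 and Gad1 0.34. Tff3 and Crp were on the other side of the all-region median, at -0.05 and -0.17. Without Brg1+/+ mTEChi replicate 1 the Tg median was 0.23, beside an all-region median of 0.13. The Tg locus median was 3.48 and 4.04 in Brg1-/- mTEChi libraries, against 3.06 and 3.21 in Brg1+/+ mTEChi libraries, while in mTEClo it was 3.10 and 3.20 in Brg1-/- libraries, against 3.27 and 3.03 in Brg1+/+ libraries. The genotypes were thus apart in mTEChi and overlapped in mTEClo, where the median fold change at Tg was -0.23. The all-region medians were apart in mTEChi too, with 4.04 and 4.38 in Brg1-/- libraries, against 3.67 and 3.84 in Brg1+/+ libraries. The Tg difference of group means was 0.62, and relative to the all-region medians it was 0.17. At the casein locus these were 0.74 and 0.29, with the genotypes apart by both measures in mTEChi and overlapping in mTEClo. At Tff3 the genotypes overlapped as measured in both sorts. Relative to the all-region medians both Brg1-/- libraries were lower there, by -0.52 in mTEChi and by -0.18 in mTEClo. The largest single change at Tg was again at chr15:66656112-66656611, with 61.5 and 33.3 in Brg1-/- mTEChi libraries, against 9.19 and 2.16 in Brg1+/+ mTEChi libraries. Both Brg1-/- libraries were higher, at a log2 fold change of 3.03 ± 0.96 (SE; limma adjusted p = 0.242).

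The region with the smallest adjusted p for Brg1 loss was at Crp, an Aire-independent locus, in mTEChi and again in mTEClo, and neither passed the test. At chr1:174568955-174569454 the signal was 1.85 and 1.65 in Brg1-/- mTEChi libraries, against 14.1 and 8.15 in Brg1+/+ mTEChi libraries. The log2 fold change was -2.10 ± 0.60 (SE; limma adjusted p = 0.204), with both Brg1-/- libraries lower. At chr1:174610727-174611226 the signal was 13.0 and 10.7 in Brg1-/- mTEClo libraries, against 44.0 and 57.9 in Brg1+/+ mTEClo libraries. The log2 fold change was -2.01 ± 0.56 (SE; limma adjusted p = 0.563), again with both Brg1-/- libraries lower. In mTEChi the same region had 10.7 and 18.0 in Brg1-/- libraries, against 38.8 and 7.36 in Brg1+/+ libraries, which overlapped. At Gad1 the largest change in mTEChi was 1.63 ± 0.65 (SE; limma adjusted p = 0.362), at chr2:70396814-70397313, with 42.7 and 57.5 in Brg1-/- libraries, against 21.5 and 10.8 in Brg1+/+ libraries.

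Between the sorts, regions at 5 of the 6 loci passed the test. In Aire-/- cells 14 of 166 members were called between mTEChi and mTEClo, 8 higher and 6 lower in mTEChi, where 11.4% of all regions were called, 7.15% higher and 4.22% lower. In Aire+/+ cells 16 were called, 7 higher and 9 lower, against 8.79%, of which 5.14% higher and 3.65% lower. In Brg1-/- cells 10 were called, 6 higher and 4 lower, against 8.11%, of which 6.61% higher and 1.50% lower, and in Brg1+/+ cells 21 were called, 14 higher and 7 lower, against 13.0%, of which 9.21% higher and 3.75% lower. The members were thus called at shares near those of all regions. The direction depends on the scaling: with the library medians set equal, 4 were higher and 7 lower in Aire-/- cells, 5 and 13 in Aire+/+ cells, 0 and 10 in Brg1-/- cells, and 7 and 12 in Brg1+/+ cells. With quantile normalization these counts were 5 and 10, 7 and 11, 1 and 5, and 4 and 6. Leaving out Aire-/- mTEChi replicate 1 or mTEClo replicate 1 left 4 calls in Aire-/- cells, and leaving out Brg1-/- mTEChi replicate 2 or mTEClo replicate 2 left 3 in Brg1-/- cells. Without Brg1+/+ mTEChi replicate 2 there were 7 in Brg1+/+ cells, and without Aire+/+ mTEClo replicate 2 there were 5 in Aire+/+ cells, where 11 were called without Aire+/+ mTEChi replicate 2.

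In all, 34 of the 166 regions were called in at least 1 genotype, 22 higher and 12 lower in mTEChi, and none in both directions. Of all regions tested, 24.3% were called in at least 1 genotype, 16.7% higher and 7.68% lower. Gad1 had 8 higher and 1 lower, Tff3 5 higher and 1 lower, the caseins 3 higher and 1 lower, Tg 5 of each, and Crp 1 higher and 4 lower. Ins2 had none, and the smallest limma adjusted p there was 0.0729, in Brg1-/- cells. Of the 166 regions, 15 were called in 2 or more genotypes, against 10.1% of all regions, and 4 were called in all 4, against 1.94%. Of the 34 regions, 28 had the same sign in all 4 genotypes. That share was not computed for all regions, so the count has no background. Between 52.4% and 74.2% of all regions were above 0 in each genotype. The 4 comparisons share no libraries, though they share 1 estimate of the spread.

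Gad1 was the locus whose median stood highest in mTEChi over mTEClo. It was 4.79 and 4.68 in Aire-/- mTEChi libraries, against 3.40 and 3.76 in Aire-/- mTEClo libraries. It was 4.95 and 5.09 in Aire+/+ mTEChi libraries, against 3.60 and 3.75 in Aire+/+ mTEClo libraries. In the Brg1 line it was 4.69 and 5.09 in Brg1-/- mTEChi libraries, against 3.06 and 3.55 in Brg1-/- mTEClo libraries, and 3.76 and 4.69 in Brg1+/+ mTEChi libraries, against 3.14 and 2.87 in Brg1+/+ mTEClo libraries. The sorts did not overlap at Gad1 in any genotype, with differences of the group means of 1.15, 1.34, 1.58 and 1.22, while the same differences for all regions were 0.17, 0.32, 0.76 and 0.47. Measured against the all-region median of each library, the 2 sorts still did not overlap in any genotype. Crp, the other Aire-independent locus, had the opposite order by that measure, with both mTEChi libraries below both mTEClo libraries in all 4 genotypes, and so did Tg. As measured, both loci were higher in Brg1-/- mTEChi, lower in Aire-/- mTEChi and overlapped in both wild types. Tff3, an Aire-dependent locus, was higher in mTEChi in all 4 genotypes as measured, by 0.45, 0.65, 0.91 and 0.96, and relative to all regions the sorts overlapped in both knockouts.

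The Gad1 region called in all 4 genotypes, chr2:70446551-70447050, lay 117 kb into its window and was higher in mTEChi. Its signal was 62.5 and 61.8 in Aire-/- mTEChi libraries, against 5.30 and 12.6 in Aire-/- mTEClo libraries. It was 122 and 83.3 in Aire+/+ mTEChi libraries, against 10.9 and 7.07 in Aire+/+ mTEClo libraries. The region was thus low in mTEClo and high in mTEChi libraries of both Aire genotypes. In the Brg1 line it was 46.5 and 62.7 in Brg1-/- mTEChi libraries, against 9.81 and 7.97 in Brg1-/- mTEClo libraries, and 26.4 and 47.0 in Brg1+/+ mTEChi libraries, against 5.77 and 6.17 in Brg1+/+ mTEClo libraries. The log2 fold changes were 2.77 ± 0.58 in Aire-/-, 3.38 ± 0.58 in Aire+/+, 2.48 ± 0.58 in Brg1-/- and 2.38 ± 0.58 in Brg1+/+ (SE), with limma adjusted p of 0.00167, 0.000261, 0.00755 and 0.00594. The call was lost without Aire-/- mTEClo replicate 1 (adjusted p = 0.0546), without Brg1+/+ mTEChi replicate 2 (0.0800), and without Brg1-/- mTEChi replicate 2 (0.0734) or mTEClo replicate 2 (0.0585). It was kept without any 1 Aire+/+ library. With the library medians set equal it was lost in Brg1-/- cells (adjusted p = 0.0708), and with quantile normalization in Brg1+/+ cells (0.0526).

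The Tff3 region called in all 4 genotypes, chr17:31214540-31215039, was also higher in mTEChi, but by less. Besides the Aire line values above, it had 111 and 101 in Brg1-/- mTEChi libraries, against 43.8 and 30.9 in Brg1-/- mTEClo libraries. It had 105 and 111 in Brg1+/+ mTEChi libraries, against 45.8 and 33.2 in Brg1+/+ mTEClo libraries. The log2 fold changes were 1.26, 1.58, 1.50 and 1.44 in Aire-/-, Aire+/+, Brg1-/- and Brg1+/+ cells, each ± 0.40 (SE), with limma adjusted p between 0.00988 and 0.0348. The mTEChi libraries were above the mTEClo libraries of their genotype throughout, yet each call was lost in 3 of the 4 fits that left out 1 library, with adjusted p up to 0.357, and all 4 were lost with the library medians set equal, with adjusted p of 0.0640 or more. A second Tff3 region, chr17:31202897-31203396, was higher in mTEChi in 3 genotypes, by 2.23 in Aire+/+, 1.97 in Brg1-/- and 2.28 in Brg1+/+. These calls were lost without Aire+/+ mTEChi replicate 2 (adjusted p = 0.0755) or mTEClo replicate 1 (0.142), without Brg1+/+ mTEChi replicate 1 (0.139) or mTEClo replicate 2 (0.0699), and without Brg1-/- mTEChi replicate 2 (0.207) or mTEClo replicate 1 (0.0675) or 2 (0.188). The Brg1-/- call was also lost with the library medians set equal (0.238) and with quantile normalization (0.168), and the Brg1+/+ call with quantile normalization (0.0793). In Aire-/- cells it differed by 0.73 ± 0.57 (SE; limma adjusted p = 0.464), with 31.8 and 47.8 in mTEChi libraries, against 14.9 and 35.6 in mTEClo libraries. The largest called difference at Tff3 in the Brg1 line went the other way, at chr17:31250310-31250809. Its log2 fold change was -3.305 in Brg1+/+ and -2.387 in Brg1-/- cells (each ± 0.62, SE; limma adjusted p = 0.000577 and 0.0156). With 1 library left out it lay between -3.445 and -3.164 in Brg1+/+ and between -2.955 and -1.82 in Brg1-/- cells. The Brg1+/+ call was kept without any 1 library. The Brg1-/- call was lost without Brg1-/- mTEChi replicate 2 and without mTEClo replicate 1 or 2. This region was not called in Aire-/- or Aire+/+ cells, at -1.512 and -1.265.

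The caseins held an opposite pair. The region at the window start, chr5:88051597-88052096, was lower in mTEChi in all 4 genotypes. Its signal was 19.7 and 17.4 in Aire-/- mTEChi libraries, against 67.4 and 52.1 in Aire-/- mTEClo libraries, and 4.38 and 7.03 in Aire+/+ mTEChi libraries, against 51.1 and 47.4 in Aire+/+ mTEClo libraries. In the Brg1 line it was 16.1 and 14.5 in Brg1-/- mTEChi libraries, against 49.4 and 72.9 in Brg1-/- mTEClo libraries, and 14.2 and 7.52 in Brg1+/+ mTEChi libraries, against 85.1 and 66.0 in Brg1+/+ mTEClo libraries. No mTEChi library reached any mTEClo library. The log2 fold changes were -1.63, -2.93, -1.91 and -2.74 in Aire-/-, Aire+/+, Brg1-/- and Brg1+/+ cells, each ± 0.53 (SE), with limma adjusted p of 0.0408, 0.000474, 0.0232 and 0.000803. The calls in both wild types were kept without any 1 library, and those in Aire-/- and Brg1-/- cells were lost without any 1 library of their own, with adjusted p between 0.138 and 0.245 and between 0.0644 and 0.171.

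The second casein region, chr5:88128237-88128736, 78 kb into the window, was higher in mTEChi. It had 83.3 and 56.3 in Aire-/- mTEChi libraries, against 1.90 and 1.65 in Aire-/- mTEClo libraries, and 69.9 and 48.0 in Aire+/+ mTEChi libraries, against 8.95 and 6.28 in Aire+/+ mTEClo libraries. It had 41.7 and 23.0 in Brg1-/- mTEChi libraries, against 5.33 and 10.7 in Brg1-/- mTEClo libraries, and 42.6 and 76.0 in Brg1+/+ mTEChi libraries, against 5.59 and 6.97 in Brg1+/+ mTEClo libraries. The sorts were apart in each genotype. The log2 fold change of 4.65 ± 0.62 in Aire-/- cells (SE; limma adjusted p = 1.03e-05) was the largest at any of the 6 loci. It was 2.79 in Aire+/+ and 3.00 in Brg1+/+ cells (adjusted p = 0.00389 and 0.00163), and 1.89 in Brg1-/- cells, where it was not called (adjusted p = 0.0541). The Aire+/+ call was lost without Aire+/+ mTEClo replicate 2 (adjusted p = 0.0685). The sort difference was 1.85 ± 0.88 greater in Aire-/- than in Aire+/+ cells (SE; limma adjusted p = 0.959), which did not pass.

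Tg held regions in both directions. At chr15:66714861-66715360, 285 kb into the window, the signal was 7.57 and 5.58 in Aire-/- mTEChi libraries, against 66.2 and 96.2 in Aire-/- mTEClo libraries. It was 17.8 and 10.9 in Aire+/+ mTEChi libraries, against 90.4 and 106 in Aire+/+ mTEClo libraries, 1.64 and 13.0 in Brg1-/- mTEChi libraries, against 42.2 and 35.1 in Brg1-/- mTEClo libraries, and 5.80 and 2.18 in Brg1+/+ mTEChi libraries, against 71.1 and 113 in Brg1+/+ mTEClo libraries. The mTEChi libraries were below the mTEClo libraries in every genotype. The log2 fold changes were -3.43, -2.73, -2.70 and -4.29 in Aire-/-, Aire+/+, Brg1-/- and Brg1+/+ cells, each ± 0.65 (SE), with limma adjusted p of 0.000616, 0.00627, 0.00919 and 5.66e-05. The calls also held in all 4 genotypes with the library medians set equal and with quantile normalization. The call in Aire+/+ cells was lost without mTEChi replicate 2 (adjusted p = 0.0624) or mTEClo replicate 2 (0.0883), and that in Brg1-/- cells without mTEChi replicate 1 (0.165) or mTEClo replicate 1 (0.0819). Another Tg region, chr15:66571227-66571726, was lower in mTEChi by 1.94 in Aire-/-, by 2.56 in Aire+/+ and by 3.29 in Brg1+/+ cells, and chr15:66646941-66647440 was higher by 2.92 in both Aire-/- and Brg1+/+ cells. At chr15:66571227-66571726 the Brg1+/+ call was kept without any 1 library, the Aire+/+ call was lost without mTEClo replicate 1 (adjusted p = 0.0841), and the Aire-/- call was lost without any 1 of its libraries (0.0644 to 0.155). At chr15:66646941-66647440 the calls were lost without Aire-/- mTEChi replicate 1 (0.158) or mTEClo replicate 1 (0.158), and without Brg1+/+ mTEChi replicate 2 (0.0793) or mTEClo replicate 1 (0.191).

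At Crp the regions called in more than 1 genotype were all lower in mTEChi. The region chr1:174568955-174569454 had 8.10 and 8.77 in Aire-/- mTEChi libraries, against 56.5 and 63.2 in Aire-/- mTEClo libraries, and 14.6 and 17.7 in Aire+/+ mTEChi libraries, against 65.5 and 106 in Aire+/+ mTEClo libraries. It had 1.85 and 1.65 in Brg1-/- mTEChi libraries, against 39.9 and 21.6 in Brg1-/- mTEClo libraries. The libraries were apart in each, with log2 fold changes of -2.69, -2.30 and -3.47 (each ± 0.60, SE; limma adjusted p = 0.00328, 0.0136 and 0.000655). In Brg1+/+ cells it differed by -1.60 and was not called (limma adjusted p = 0.0748), with 14.1 and 8.15 in mTEChi libraries, against 51.3 and 23.4 in mTEClo libraries. The call was lost without Aire-/- mTEClo replicate 2 (adjusted p = 0.0541), Aire+/+ mTEChi replicate 1 (0.0591) or Aire+/+ mTEClo replicate 2 (0.206), and kept without any 1 Brg1-/- library. The second highest region of the locus, chr1:174627307-174627806, fell to 14.9 and 17.9 in Brg1+/+ mTEChi libraries, against 91.2 and 114 in Brg1+/+ mTEClo libraries, a log2 fold change of -2.57 (limma adjusted p = 4.17e-05) that was kept without any 1 library. In Aire+/+ cells it differed by -1.40 (limma adjusted p = 0.0159), a call lost without mTEChi replicate 1 (0.0728) or mTEClo replicate 1 (0.148) or 2 (0.0774). It was not called in Aire-/- cells, at -1.05 (0.0676), or in Brg1-/- cells, at -0.80 (0.183).

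**Figure D4:**
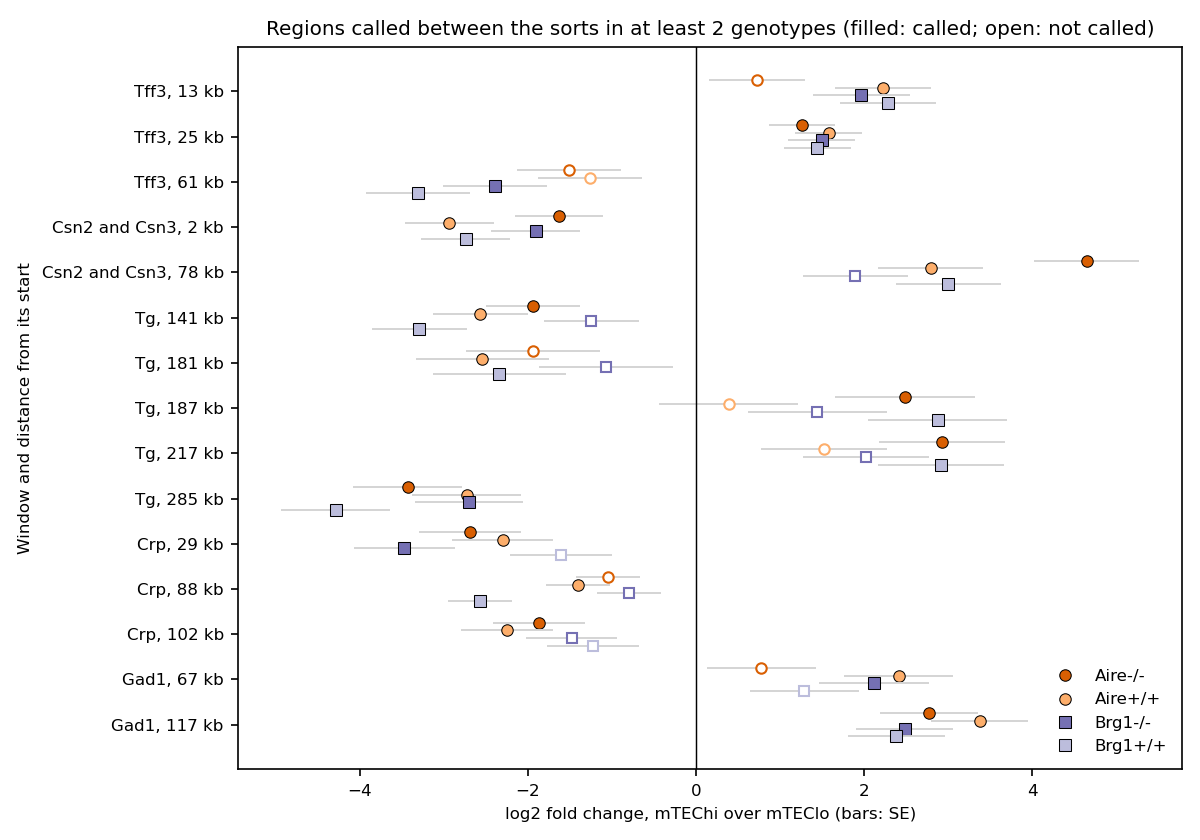
Log2 fold change of mTEChi over mTEClo (horizontal axis, bars show the SE) in each of the 4 genotypes for the 15 regions called in at least 2 genotypes, named by window and distance from its start in kb. Filled symbols were called; all 15 regions have the same sign in the genotypes in which they were called.

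**Figure D5:**
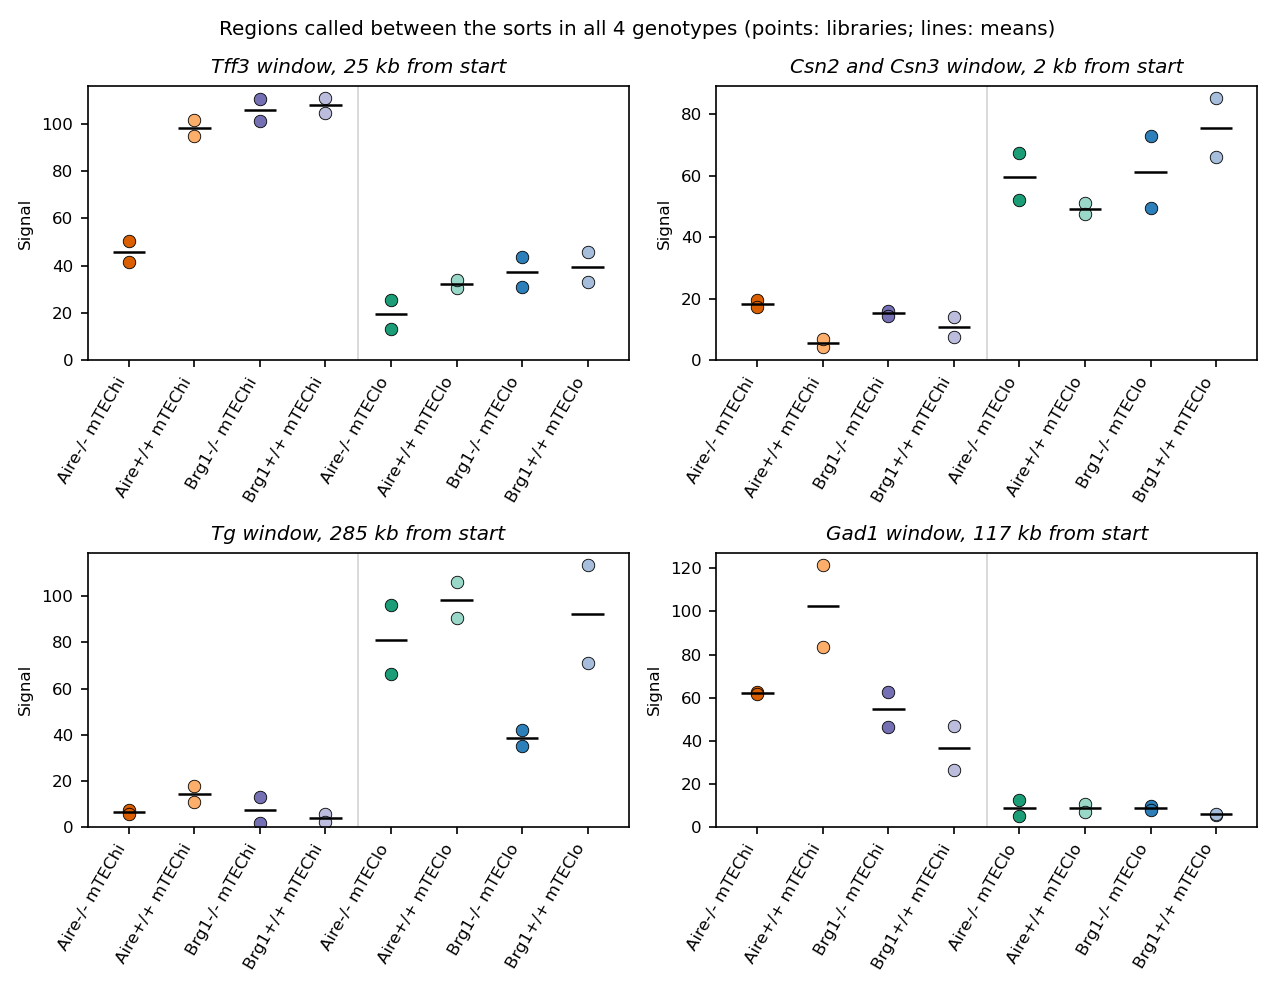
Signal (vertical axis, authors' normalized units) in every library (points, with group means as lines) of the 8 groups for the 4 regions called between the sorts in all 4 genotypes. The Tff3 and Gad1 regions are higher in mTEChi, and the casein and Tg regions are lower.

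Over the 8 group means, the locus whose median level ran most like that of Gad1 was Tff3, with a Pearson r of 0.905, and the least like it was Crp, with 0.233. Crp was most like Tg, with 0.765. These 15 pairs of loci share their libraries and the scaling of each library, so the values are a description, with no test. The pairs with the highest and the lowest r thus join Gad1 with an Aire-dependent locus and with the other Aire-independent locus.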

How the data were processed

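ATAC-seq libraries of sorted mTECs were deposited as 1 table of regions by libraries. Its values are a normalized signal made by the authors, and no source used here gives its scaling. The submitters' processing notes list Bowtie2, MACS2 and mm9, with no version or role. The values are not counts, so no count model was used, depth and counting error are unknown, and 2 libraries a group limit the precision. Regions with a mean signal under the 10th percentile (7.485) were left out, leaving 225281. Limma 3.58.1 in R 4.3.3 was run on log2(signal + 1), fitting 8 group means to the 16 libraries together, with trended, robust moderation. Fold changes are on that scale, which understates the change of low regions. Two-sided p-values were adjusted by Benjamini-Hochberg over all regions tested in each of 10 comparisons and called under 0.05; the code was tested on simulated data. Locus summaries use all regions of a locus, also those not tested. Regions named were drawn from the 2 highest of each window and the largest fold change of each window and knockout comparison. The largest called sort difference of each window and genotype was a further source, and only a part of all these is given. The regions called between the sorts in 3 or 4 genotypes were named after their values were seen. So were chr15:66646941-66647440 and the Aire comparisons of chr17:31214540-31215039 and chr5:88051597-88052096. The loci, classes and tests were chosen with earlier results of these data known. Alternatives were 2 pseudocounts, no filter or a stricter one, 2 scalings, a fit by line, a replicate block, and each library left out.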

Additional observations from a re-analysis of the deposited data

Results flagged for a closer look

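The Ins2 locus median had opposite orders of the sorts in the Aire line. In Aire-/- cells the difference of mTEChi minus mTEClo was -0.34 on the log2 scale, with 3.12 and 3.30 in mTEChi libraries, against 3.65 and 3.46 in mTEClo libraries. In Aire+/+ cells it was 0.56, with 3.64 and 4.19 in mTEChi libraries, against 3.47 and 3.24 in mTEClo libraries. Without Aire+/+ mTEChi replicate 2 the Aire+/+ difference was 0.29, and without Aire+/+ mTEChi replicate 1 it was 0.84. Without any 1 Aire-/- library the Aire-/- difference lay between -0.44 and -0.25. Every mTEChi library was below the mTEClo libraries in Aire-/- and above them in Aire+/+ cells, which is why it is listed; the difference between genotypes was not tested for the locus median. Relative to the all-region median of each library, the Aire-/- difference was -0.51 and the Aire+/+ difference 0.24, and the Aire+/+ sorts then overlapped.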

How the results depend on the processing

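The knockout comparisons and the tests of a difference in knockout effect between the sorts had 0 member regions called under every alternative run. With quantile normalization the calls between the sorts were 6 in Brg1-/- and 10 in Brg1+/+ cells, against 10 and 21 as reported, and with a pseudocount of 5 there were 16 in Brg1-/- cells. With 1 library left out, calls ranged between 4 and 6 in Aire-/-, 5 and 13 in Aire+/+, 3 and 9 in Brg1-/- and 7 and 15 in Brg1+/+ cells; each such fit has fewer samples, and the lone library is assumed to vary like the other groups. Of the 61 calls, 12 were kept in all 4 such fits and 12 were lost in all 4, and all 61 kept their sign. Libraries with the same replicate number were not paired (correlations of their deviations between -0.018 and 0.034); with the replicate block the calls were 13, 16, 10 and 21 in Aire-/-, Aire+/+, Brg1-/- and Brg1+/+ cells and 0 in the knockout comparisons. The difference of dependent minus independent loci became -0.42 in Aire+/+ mTEChi and -0.39 in Aire+/+ mTEClo with the casein window left out; with means over regions in place of medians it was -0.68, -0.85 and, in Brg1-/- mTEChi, -0.26. The fold change of Gad1 region chr2:70487483-70487982 in Aire-/- mTEClo, -1.18, ranged between -2.48 and 0.13 with 1 library left out and reversed without Aire-/- mTEClo replicate 2, whose signal was 0.46. Among the fits of 20 named sort differences with other settings, 150 kept the call and 8 lost it. With 1 library left out, a larger share of the fits lost it. Regions under the median signal have no value with the stricter filter. The causes of these changes were not tested, and low regions are the least certain because the depth is unknown.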
